A study of Mus musculus with 45 samples.

Results

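Homeostatic microglia genes were followed in the nucleus accumbens (NAC) of mice through withdrawal from chronic intermittent ethanol (CIE). The 9 genes were Fcrls, P2ry12, P2ry13, Gpr34, Cx3cr1, Siglech, Tmem119, Olfml3 and Sall1. They were taken as every probeset whose platform annotation gives 1 of these symbols alone, which found 11 probesets for the 9 genes among 45037 probesets and 18193 genes on the array, and no probeset was shared with another gene. Sall1 and Cx3cr1 had a bright and a dim probeset each and the other genes 1. The genes were chosen by their known role and with their measured differences between CIE and Ctrl at 0 h and 8 h already in view, so the values at those times are given as a description without a p-value, and the 9 genes are tested only at 72 h and 7 d and for the variation of single arrays around their group means.

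The 45 arrays each held RNA from the NAC of 1 adult male mouse, of strain C57BL/6J in the methods and C57BL/6 in the labels. CIE mice received 1.6 g/kg ethanol and 1 mmol/kg pyrazole, which blocks alcohol dehydrogenase, before ethanol vapor of 10 to 13 mg/l air for 16 h a day on 4 days, and this was repeated for 4 cycles separated by 7 days of abstinence. Saline replaced ethanol and plain air replaced vapor for the Ctrl mice. They were given pyrazole as well, so every group in the comparison carried pyrazole, injections and chamber handling. Tissue was taken 0 h (6 Ctrl and 6 CIE arrays), 8 h (5 and 5), 72 h (6 and 5) and 7 d (6 and 6) after the last chamber session. Values are deposited log2 expression after robust multi-array averaging (RMA), in which 1 unit is a doubling and single arrays have medians of 6.942 to 6.965. In a piece of whole tissue, fewer microglia and less RNA per microglial cell cannot be told apart.

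Microglia are the resident macrophages of the brain. In undisturbed tissue they scan their surroundings with fine processes and carry a set of receptors and regulators that other macrophages largely lack, and this homeostatic set is maintained by CSF1 receptor and TGF-beta signalling and is lowered when the cells become activated. Fcrls is a scavenger receptor of the Fc receptor-like family found in mouse microglia. P2ry12 and P2ry13 are receptors for ADP, Gpr34 is a receptor for lysophosphatidylserine and Cx3cr1 is the receptor for the neuronal chemokine fractalkine. Siglech is a sialic acid-binding lectin, Tmem119 is a transmembrane protein used to tell microglia from blood-derived cells, Olfml3 is a secreted olfactomedin-family protein and Sall1 is a transcription factor that maintains microglial identity.

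All 9 genes were measured above 6.956, the median of the probeset means over all arrays, at their brightest probeset. The mean over all arrays was highest for P2ry12 at 9.77 (probeset 1431724_a_at) and Cx3cr1 at 9.67 (1450020_at), followed by Fcrls at 8.99 (1448891_at), Tmem119 at 8.82 (1451344_at), Sall1 at 8.64 (1437983_at), Olfml3 at 8.43 (1448475_at), P2ry13 at 8.42 (1428700_at), Siglech at 8.39 (1436131_at) and Gpr34 at 8.24 (1422542_at). The order is a listing only, since probesets differ in hybridization and their levels cannot be compared between genes. The dim probesets of Sall1 (1450489_at, mean 6.44) and Cx3cr1 (1450019_at, mean 5.64) lay below the median of probeset means. Markers of the wider myeloid lineage had means of 12.19 for Csf1r, 10.66 for C1qa, 10.56 for Tyrobp, 8.71 for Aif1 and 6.29 for Itgam, the last below that median. The mean of 12 perivascular macrophage genes stayed between 5.70 and 6.09 in single arrays and that of 8 blood monocyte and neutrophil genes between 4.91 and 5.27, and these levels too are given without comparison between genes.

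Of the 9 genes, 4 lie on chromosome 3 of the mouse genome (RefSeq, GRCm38.p6). Fcrls spans chr3:87250736-87263765, P2ry12 chr3:59216271-59262985, P2ry13 chr3:59207892-59210882 and Olfml3 chr3:103735394-103738001. Tmem119 spans chr5:113793729-113800396, Siglech chr7:55768154-55779448, Sall1 chr8:89027242-89044162, Cx3cr1 chr9:120048683-120068296 and Gpr34 chrX:13622650-13640859. Promoter windows of 250 bases before and 50 after a start site were held for 7 of the 9 genes, and were searched on both strands for GAGGAA, the PU box recognised by the myeloid factor PU.1. The letters occurred in 3 of the 9 windows of these genes, each in another gene, and in 28.3% of the 32851 windows of all genes. The stretches of 30 bases that hold them are shown to place the box in these genes, on the strand on which it reads GAGGAA and with the box in capitals. In Fcrls and P2ry13 it lay on the strand of the gene, 144 and 48 bases before the start site, and in Siglech it lay on the opposite strand across the start site. The start sites of the Fcrls and Siglech windows lie within the gene models given above.
Fcrls, chr3:87263651-87263680, minus strand: caagtctgtaaaGAGGAAggacgtttgctt
P2ry13, chr3:59210913-59210942, minus strand: acaaggggaaatGAGGAAggaaaagcagta
Siglech, chr7:55768168-55768197, minus strand: cagctcacagaaGAGGAActagggacagca

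The 250 bases before the start sites of P2ry12 and Olfml3 are shown because these genes, with Fcrls, were the members past the threshold at 0 h. Neither window held GAGGAA in these letters, which describes this window alone.
P2ry12, chr3:59262986-59263235, minus strand: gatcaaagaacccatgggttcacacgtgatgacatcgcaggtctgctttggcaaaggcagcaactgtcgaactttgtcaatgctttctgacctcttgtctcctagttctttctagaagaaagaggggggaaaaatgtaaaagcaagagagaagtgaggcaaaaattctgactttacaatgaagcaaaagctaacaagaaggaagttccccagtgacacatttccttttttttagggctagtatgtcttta
Olfml3, chr3:103738002-103738251, minus strand: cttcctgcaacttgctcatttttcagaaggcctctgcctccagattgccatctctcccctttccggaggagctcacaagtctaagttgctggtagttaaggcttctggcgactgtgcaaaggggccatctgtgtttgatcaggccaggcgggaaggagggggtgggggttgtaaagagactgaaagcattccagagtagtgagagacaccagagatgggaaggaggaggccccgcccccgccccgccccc

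Some arrays stood apart from the rest of their group. The SD over all probesets of an array's deviation from its group mean was 0.161 for the median array and reached 0.319 in Ctrl 7 d replicate 62, 0.279 in CIE 7 d replicate 13 and 0.255 in CIE 0 h replicate 72. Ctrl 0 h replicate 20 had a mean of 8.81 over 28 pan-myeloid genes, against 8.17 to 8.36 in the other 5 arrays of its group, and 8.46 over 19 genes of disease-associated and activated microglia, against 7.79 to 7.87. It was also the lowest Ctrl 0 h array for Fcrls. This array shared no hybridization set with another, where a set is a group of arrays that hold exactly equal values for several probesets, and 6 such sets of 6 to 8 arrays held the others. The 4 genes of cortical pyramidal neurons varied widely between single arrays, from 5.67 to 8.33 in Ctrl 0 h and from 5.80 to 9.29 in CIE 0 h. The sources of these differences were not tested.

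Fcrls was lower in every CIE array than in every Ctrl array at 0 h and at 8 h and lay within the range of the Ctrl arrays at 72 h and close to it at 7 d. At 0 h the 6 Ctrl arrays read 8.71 (replicate 20), 9.31 (30), 9.18 (38), 9.20 (48), 9.28 (74) and 9.07 (78). The 6 CIE arrays read 7.50 (replicate 5), 7.88 (17), 7.45 (26), 8.35 (43), 7.91 (67) and 8.42 (72). The groups did not overlap and were 0.29 apart at their closest, and the spread of the CIE arrays (SD 0.408, n = 6) was wider than that of the Ctrl arrays (SD 0.218, n = 6). Replicates 5 and 26 were the lowest CIE arrays and replicates 43 and 72 the highest. The difference of -1.21 (SE 0.108) on the log2 scale left Fcrls at 0.433 of the Ctrl level. It was the lowest difference of the 18193 genes at their brightest probeset and ranked 3 from the lowest among the 45037 probesets. The SE of 0.108 uses a spread shared by all groups, and it was 0.168 with the 0 h arrays alone. Within hybridization sets the difference was negative in 5 of 5, from -1.81 to -0.93.

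At 8 h the difference of Fcrls was smaller and the arrays were tighter. The 5 Ctrl arrays ranged from 9.10 to 9.31 with a median of 9.18. The CIE arrays read 8.35 (replicate 1), 8.26 (15), 8.57 (23), 8.37 (25) and 8.29 (51). All 5 CIE arrays were again below the lowest Ctrl array, with a gap of 0.53, a separation seen at this time in 0.975% of all probesets. The difference was -0.83 (SE 0.118), or 0.564 of the Ctrl level. Among the 18193 genes it ranked 2 from the lowest, after that of Hes5, a Notch target, at -1.40. Among the 45037 probesets it ranked 8. It was negative within 5 of 5 hybridization sets, from -0.94 to -0.70.

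**Figure D1:**
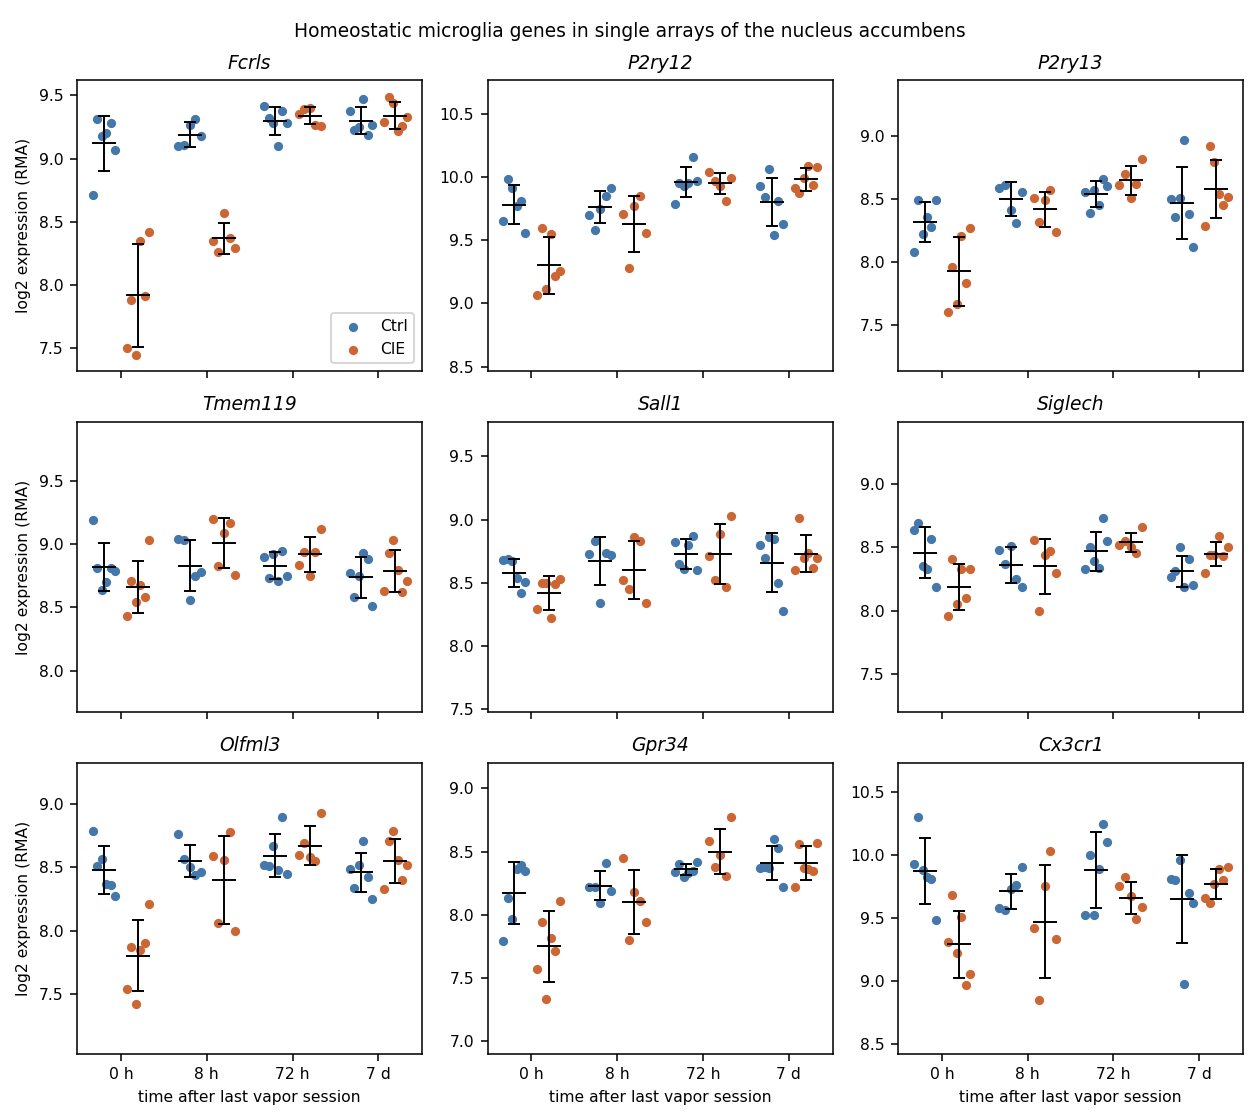
Log2 expression (RMA) of each gene at its brightest probeset in single arrays, by time after the last chamber session. Points are arrays, blue for Ctrl and orange for CIE, and black marks give the group mean and SD, with the same number of log2 units on every vertical axis. Fcrls in CIE mice lies below all Ctrl arrays at 0 h and 8 h and among them at 72 h and 7 d.

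The other 8 genes were lower on average in CIE mice at 0 h, by smaller amounts. At an adjusted p of 0.01, 3 of the 11 probesets passed as lower, those of Fcrls, Olfml3 and P2ry12, where 0.619% of all probesets passed as lower. This share is given beside the count because the genes were chosen with this comparison known, and nothing is read from it. Of the 11 probesets, 10 lay below 0, as did 48.2% of all probesets. The median difference was -0.41 over the other 8 genes and 0.0042 over all probesets. Fcrls and Olfml3 were the genes whose CIE arrays all lay below the Ctrl arrays, which was so for 0.577% of all probesets.

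Among the receptors for nucleotides, P2ry12 fell by 0.48 (SE 0.091). The Ctrl mean was 9.78 ± 0.155 (SD, n = 6), and that of the CIE arrays 9.30 ± 0.223 (SD, n = 6). Its Ctrl arrays ranged from 9.56 to 9.98 around a median of 9.79 and its CIE arrays from 9.07 to 9.60 around 9.24. Of the 6 CIE arrays, 5 lay below the lowest Ctrl array and 1 reached the Ctrl range. P2ry13, whose gene lies beside P2ry12, differed by -0.39 (SE 0.11) between Ctrl arrays of 8.08 to 8.49 and CIE arrays of 7.61 to 8.27, and 4 CIE arrays were below all Ctrl arrays.

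Gpr34 differed by -0.42 (SE 0.106) at 0 h, with Ctrl arrays of 7.79 to 8.39 and CIE arrays of 7.33 to 8.11. Cx3cr1 differed by -0.58 (SE 0.152) at its bright probeset, with Ctrl arrays of 9.48 to 10.30 and CIE arrays of 8.97 to 9.68, and by -0.51 (SE 0.182) at the dim one. The difference was of similar size at both probesets of this chemokine receptor, and the groups overlapped more at the dim one, with 2 of 6 CIE arrays below the Ctrl range against 4 of 6.

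Olfml3, the secreted protein, fell by 0.68 (SE 0.118), the difference closest to that of Fcrls. Its Ctrl arrays ranged from 8.27 to 8.79 with a median of 8.44 and its CIE arrays from 7.42 to 8.21 with a median of 7.86. The groups were separated by 0.06. Siglech differed by -0.27 (SE 0.0885), Tmem119 by -0.16 (SE 0.0986) and Sall1 by -0.16 (SE 0.101) at its bright probeset and 0.06 (SE 0.0817) at its dim one. For these genes the CIE and Ctrl arrays overlapped, with 3 CIE arrays of Siglech, 3 of Tmem119 and 2 of Sall1 below the Ctrl range. At their brightest probesets, 7 of the 9 genes were negative within 5 of 5 hybridization sets and Siglech and Tmem119 within 4 of 5. The dim probeset of Sall1 was negative within 2 of 5 and that of Cx3cr1 within 4 of 5. The share of all probesets negative within every set was not computed, and nothing is read from these counts.

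The array that stood apart in the Ctrl group and the choice of arrays in the fit moved the number of probesets that passed. Without Ctrl 0 h replicate 20 the difference of Fcrls was -1.29 and Gpr34 joined the 3 genes, and without CIE 0 h replicate 17 Gpr34 and Cx3cr1 joined them, to give 5 probesets. With the hybridization sets as a block Gpr34 passed too (-0.51, SE 0.108), to give 4. Ctrl 0 h replicate 20, which is in no set, had a block of its own and did not contribute to the difference. The block fit is thus not a check separate from the fit without that array. The count over all 45037 probesets, in either direction, was 717 with all arrays. It was 366 to 892 with a 0 h array left out and 299 with the sets as a block. When the spread was estimated from the 12 arrays of 0 h alone, no member passed, and 19 probesets passed among all.

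At 8 h the other 8 genes lay closer to the Ctrl level. Fcrls was then the only 1 of the 11 probesets that passed as lower, where 0.0311% of all probesets did. Their differences ran from -0.23 (SE 0.167) for Cx3cr1 to 0.18 (SE 0.108) for Tmem119, with a median of -0.10. P2ry12 differed by -0.12 (SE 0.0997), Olfml3 by -0.15 (SE 0.129), Gpr34 by -0.13 (SE 0.116), P2ry13 by -0.07 (SE 0.121), Sall1 by -0.07 (SE 0.111) and Siglech by -0.00 (SE 0.0969). All 8 overlapped between groups.

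Set beside its own difference at 0 h, that of Fcrls at 8 h was 68.5% as large. The share was 40.5% for Cx3cr1, 31.2% for Gpr34, 25.7% for P2ry12, 21.6% for Olfml3 and 17.8% for P2ry13. For each of these genes the 95% interval at 8 h included 0, as with -0.57 to 0.10 for Cx3cr1. The shares are thus point values whose order is not determined. For Siglech the share was 1.12%, and for Sall1 and Tmem119 the 95% interval at 0 h included 0, so no share is given. The 8 h CIE arrays varied widely for Olfml3, from 8.00 to 8.78, and for Cx3cr1, from 8.85 to 10.03, whereas Fcrls ran from 8.26 to 8.57 in the same arrays.

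**Figure D2:**
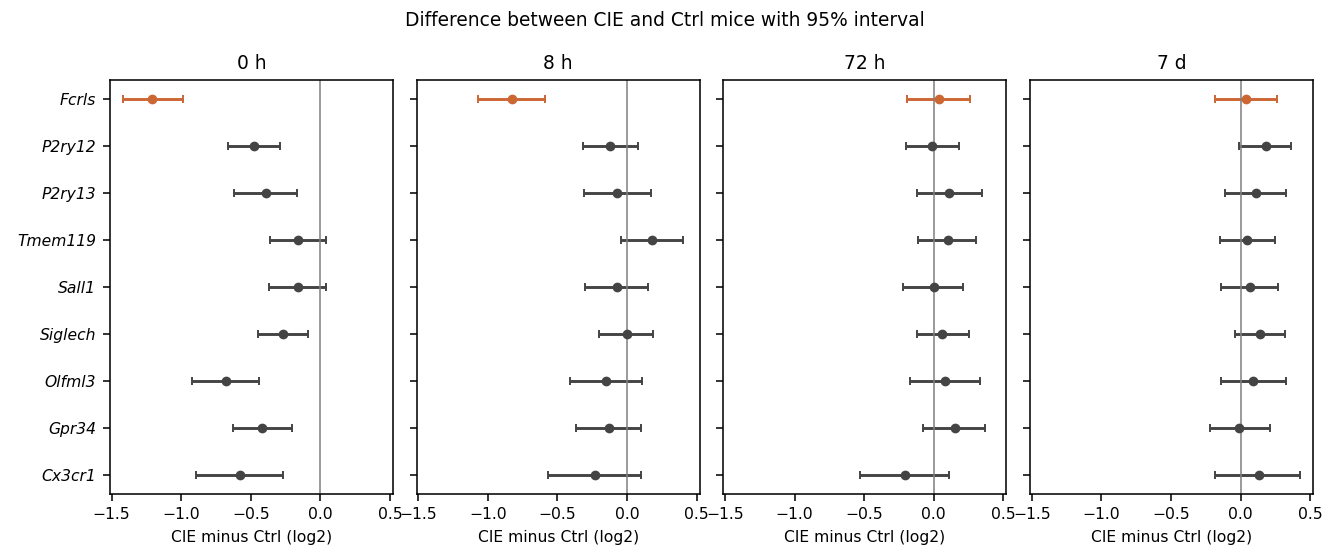
Difference between CIE and Ctrl (log2, horizontal axis) of each gene at its brightest probeset, 1 panel per time, with the 95% interval from the limma fit over all 8 groups. The points of Fcrls, in orange, stand at -1.21 and -0.83 at 0 h and 8 h and at 0.04 at 72 h and 7 d, and those of the other genes lie within 0.25 of 0 from 8 h on.

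Late in withdrawal no difference of a member passed the test. With limma and Benjamini-Hochberg adjustment over all probesets, 0 of 11 member probesets passed at 72 h and at 7 d, and 0 of all 45037 did, or 0%. At an unadjusted p under 0.05 the count was 1 of 11 at 72 h, the dim Cx3cr1 probeset, where 7.2% of all probesets had such a p, and 0 of 11 at 7 d, where 2.34% did. The smallest adjusted p among the members was 0.682 at 72 h, for a difference of -0.41 (SE 0.19) at that dim probeset, and 1 at 7 d. The bright Cx3cr1 probeset differed by -0.21 (SE 0.16) at 72 h.

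Fcrls at 72 h read 9.10 to 9.42 in Ctrl and 9.26 to 9.40 in CIE arrays, and at 7 d 9.19 to 9.47 and 9.22 to 9.49. The groups overlapped at both times. Over 72 h and 7 d together the difference of Fcrls was 0.04 (SE 0.0783, adjusted p = 0.994 by limma), with a 95% interval of -0.12 to 0.20. A remaining reduction beyond 0.12 on the log2 scale, lies outside that interval. For the other 8 genes the late differences ran from -0.04 for Cx3cr1 to 0.11 for P2ry13, with adjusted p of 0.976 or more.

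At 7 d the difference was below 0 for 2 of the 11 probesets, those of Gpr34 and the dim one of Sall1, against 52.4% of all probesets. The others lay above 0 without passing the adjusted test, with P2ry12 at 0.18 (SE 0.091, 95% interval -0.01 to 0.36), Siglech at 0.14 (SE 0.0885) and Cx3cr1 at 0.13 (SE 0.152). The value of Cx3cr1 rested on Ctrl 7 d replicate 62 and was -0.01 without it, and those of P2ry12 and P2ry13 were then 0.12 and 0.21, against 0.18 and 0.11 with it.

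Between 72 h and 7 d no change of a member passed the test within either treatment. In Ctrl mice the differences of 7 d from 72 h ran from -0.24 to 0.09 over the 11 probesets, with a smallest adjusted p of 0.872, and in CIE mice from -0.13 to 0.17, with a smallest adjusted p of 0.999 by limma. For Fcrls these were -0.00 (SE 0.108) and 0.00 (SE 0.113). No probeset of the array passed in either comparison (0%), and 0 of 11 member probesets had an unadjusted p under 0.05, which 5.47% of all probesets had in Ctrl and 3.02% in CIE. A change from 72 h to 7 d in the difference between CIE and Ctrl was not shown for any member, with a smallest adjusted p of 0.98.

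Fcrls was then set against each other gene in the same array, which removes what an array shares between them. In Ctrl 0 h arrays Fcrls minus P2ry13 was 0.80 ± 0.168 (SD, n = 6) and in CIE 0 h arrays -0.01 ± 0.15 (SD, n = 6), a change of -0.81. Only such changes are read, since the value itself sets a probeset against another. Against Gpr34 it was 0.96 ± 0.198 and 0.17 ± 0.229. These were the pairs of the 8 whose groups did not overlap at 0 h. Over the 8 pairs the change ran from -0.53 against Olfml3 to -1.04 against Tmem119 and Sall1.

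At 8 h the groups did not overlap for 7 of the 8 pairs, all but Cx3cr1, and the change was -0.59 against Cx3cr1 and -0.82 against Siglech. Against P2ry12, for which the change was -0.70, Fcrls stood at -0.57 ± 0.105 (SD, n = 5) when mice had breathed air, whereas after vapor it stood at -1.27 ± 0.171 (SD, n = 5). Against Tmem119 it was 0.36 ± 0.289 and -0.64 ± 0.171. These values at 0 h and 8 h are a description, since both genes of every pair were chosen with the comparison known. Fcrls alone already separated the groups, by 0.29 at 0 h and 0.53 at 8 h, so a pair can separate whatever the other gene. The share of separated pairs over all other genes was not computed, and nothing is read from the counts of pairs.

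At 72 h and 7 d the same differences were tested, 16 in all, with two-sided exact permutation tests whose smallest possible p was 0.00216. Changes ran from -0.11 against Gpr34 to 0.25 against Cx3cr1 at 72 h and from -0.14 against P2ry12 to 0.05 against Gpr34 at 7 d. The smallest exact p was 0.128 at 72 h and 0.301 at 7 d, and all adjusted p were 0.866 or more. The level of Fcrls relative to the other genes was thus not shown to differ between CIE and Ctrl at these times.

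**Figure D3:**
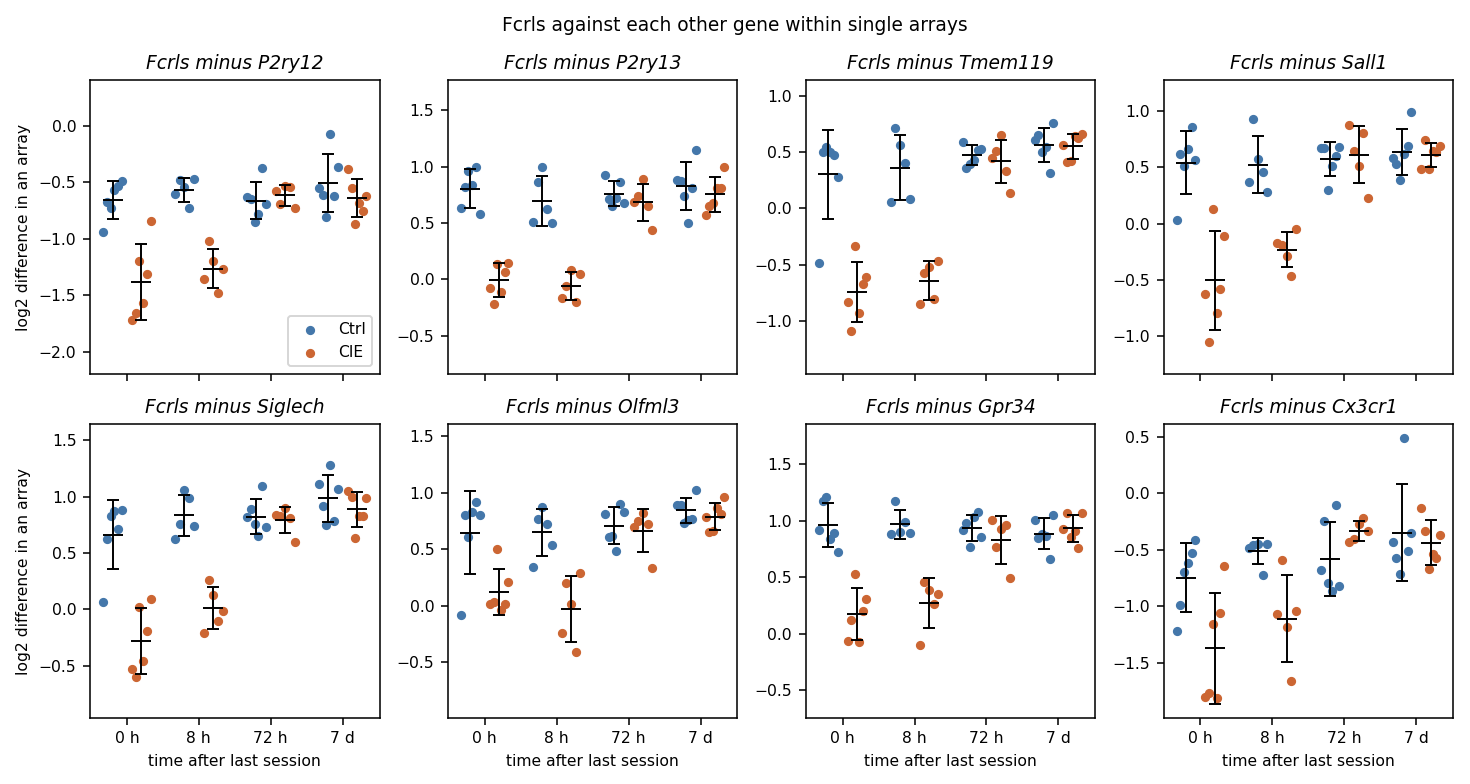
Log2 value of Fcrls minus that of each other gene in the same array, by time after the last session, with arrays as points (blue Ctrl, orange CIE) and the group mean and SD in black. At 8 h the CIE arrays lie below all Ctrl arrays in every panel but that of Cx3cr1, and at 72 h and 7 d the groups overlap in all 8.

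The arrays of a group also varied among themselves, and this variation was not used to choose the genes. After group means were removed, the deviations of Fcrls over 45 arrays followed those of P2ry13 (Pearson's r = 0.63, adjusted permutation p = 0.00136; Spearman rho = 0.48, adjusted permutation p = 0.03) and Gpr34 (r = 0.58, adjusted permutation p = 0.00832; rho = 0.43, adjusted permutation p = 0.0414), with adjustment over 8 relations. At the threshold of 0.01 both passed by r and neither by rho. For Olfml3 r was 0.39 (adjusted permutation p = 0.0997) and for P2ry12 0.36 (adjusted permutation p = 0.157). The other r were 0.26 for Siglech, 0.21 for Tmem119, 0.09 for Sall1 and 0.04 for Cx3cr1.

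The arrays farthest from the median of Fcrls were CIE 0 h replicate 72, at 0.50 above its group mean, and CIE 0 h replicate 26, at -0.47. Without them r was 0.55 for P2ry13, 0.41 for Gpr34, 0.19 for Olfml3 and 0.38 for P2ry12, and the relation with Gpr34 no longer passed (adjusted permutation p = 0.0743). With the means of the hybridization sets removed too, over 44 arrays, r was 0.59 for P2ry13, 0.49 for Gpr34, 0.56 for Olfml3 and 0.43 for Tmem119. Olfml3 then passed (adjusted permutation p = 0.00792) and Gpr34 did not (adjusted permutation p = 0.0318). The relation with P2ry13 passed by r in each of these.

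**Figure D4:**
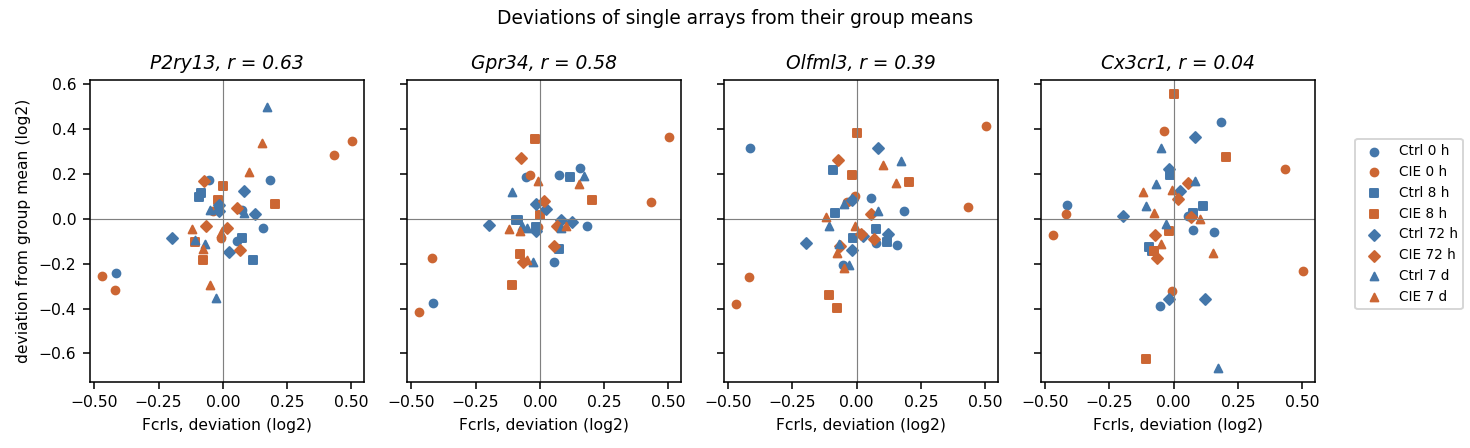
Deviation of single arrays from their group mean (log2) for Fcrls, on the horizontal axis, and P2ry13, Gpr34, Olfml3 and Cx3cr1, on the vertical axis, with r over 45 arrays above each panel. The widest spread of Fcrls is in the CIE 0 h arrays (orange circles), and the relation is weakest for Cx3cr1, at r = 0.04.

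Across all pairs of the 9 genes, the deviations of P2ry12 and Cx3cr1 followed each other closely (r = 0.82), as did those of Tmem119 and Olfml3 (r = 0.82), whereas those of Tmem119 and Cx3cr1 did not (r = -0.02). The median r was 0.31 over the 8 pairs with Fcrls and 0.38 over the 28 pairs without it, from -0.09 for P2ry13 and Cx3cr1. These are descriptions, since the genes of a pair are read from the same array and tissue piece and arrays share hybridization sets.

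Of the 18192 other genes, those whose deviations were most like Fcrls were B230216N24Rik (r = 0.68), Pex6 (r = 0.68), Abcd2 (r = 0.67), AW047730 (r = 0.66) and Shroom2 (r = 0.65) over 45 arrays. P2ry13 ranked 10 and Gpr34 22 on this measure, and the remaining members ranked from 732 for Olfml3 to 10326 for Cx3cr1. By the 8 group means, among 3346 genes whose means ranged over at least 0.3, the most alike were Reln (r = 0.978), Dubr (r = 0.977), Adamts1 (r = 0.976), Setd6 (r = 0.975) and Tubb2b (r = 0.969), with differences at 0 h of -0.45, -0.40, -0.49, -0.22 and -0.27. P2ry12 ranked 42 and Gpr34 54, and the remaining members ranked from 110 for Sall1 to 1331 for Tmem119 (r = 0.141). With 8 points such r were high for many genes, as the r of 0.935 for P2ry12 at rank 42 shows. The group means include those at 0 h and 8 h, whose differences were in view when the members were chosen. Nothing is therefore read from the ranks of members on this measure.

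None of the other microglial and myeloid genes passed the test as lower with all arrays in the fit. Of 18 further homeostatic microglia genes none passed at any time, 9 of 18 were below 0 at 0 h and their median difference was 0.01, beside 0.017 for all genes and -0.42 for the 9. The 9 were chosen with their differences at 0 h and 8 h in view, so nothing is read from the gap between these medians. At an adjusted p of 0.01 by limma 0.654% of all genes passed as lower and 1.28% as higher at 0 h. At 8 h these shares were 0.0385% and 0.044%, and at 72 h and 7 d they were 0%. A count of 0 in a list of this size is near these shares, and nothing is read from it. Of all genes 43.1% were below 0 at 0 h. Of 28 pan-myeloid genes none passed either, and without Ctrl 0 h replicate 20 Fcgr3, an Fc receptor, passed as higher (0.42, SE 0.0961, adjusted p = 0.00815 by limma). Csf1r, the receptor microglia need to survive, differed by -0.00 (SE 0.0637, adjusted p = 0.992 by limma), and its other probesets by -0.08 and -0.06. C1qa, a complement subunit, differed by 0.04 (SE 0.183), Tyrobp, a signalling adaptor, by -0.16 (SE 0.098), Aif1, the cytoskeletal protein Iba1, by -0.18 (SE 0.135) and Itgam, an integrin subunit, by -0.56 (SE 0.163, adjusted p = 0.0406 by limma).

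The median of the 28 pan-myeloid genes was -0.10 at 0 h, with 21 of 28 below 0, beside 43.1% of all genes. This median rested on Ctrl 0 h replicate 20 and was 0.03 without that array, with 12 of 28 below 0. At 8 h the median was 0.16 with 2 of 28 below 0, beside -0.12 for the 9 genes, which were chosen with this comparison known. Of all genes 48.3% were below 0 at 8 h. Fcgr3 differed by 0.35 (SE 0.118, adjusted p = 0.3 by limma) and C1qa by 0.40 (SE 0.2, adjusted p = 0.675). Other lists held 17 genes of the signals that maintain or restrain microglia, 19 of disease-associated and activated microglia, 12 of perivascular macrophages, 8 of monocytes and neutrophils and 13 relatives or neighbours of the 9 genes. None of these passed at any time, near the shares of all genes. Their medians lay between -0.06 and 0.01 at 0 h and between 0.02 and 0.10 at 8 h. The mean of the disease-associated and activated list at 0 h was 8.46 in Ctrl replicate 20. It was 7.79 to 7.87 in the other 5 Ctrl arrays and 7.81 to 8.03 in CIE arrays. The median of this list without replicate 20 was not computed. At 8 h its median was 0.10, with 3 of 19 below 0. P2ry1, another ADP receptor, differed most among the relatives, by -0.48 (SE 0.169, adjusted p = 0.102) at 0 h and -0.44 (SE 0.185, adjusted p = 0.522) at 8 h.

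**Figure D5:**
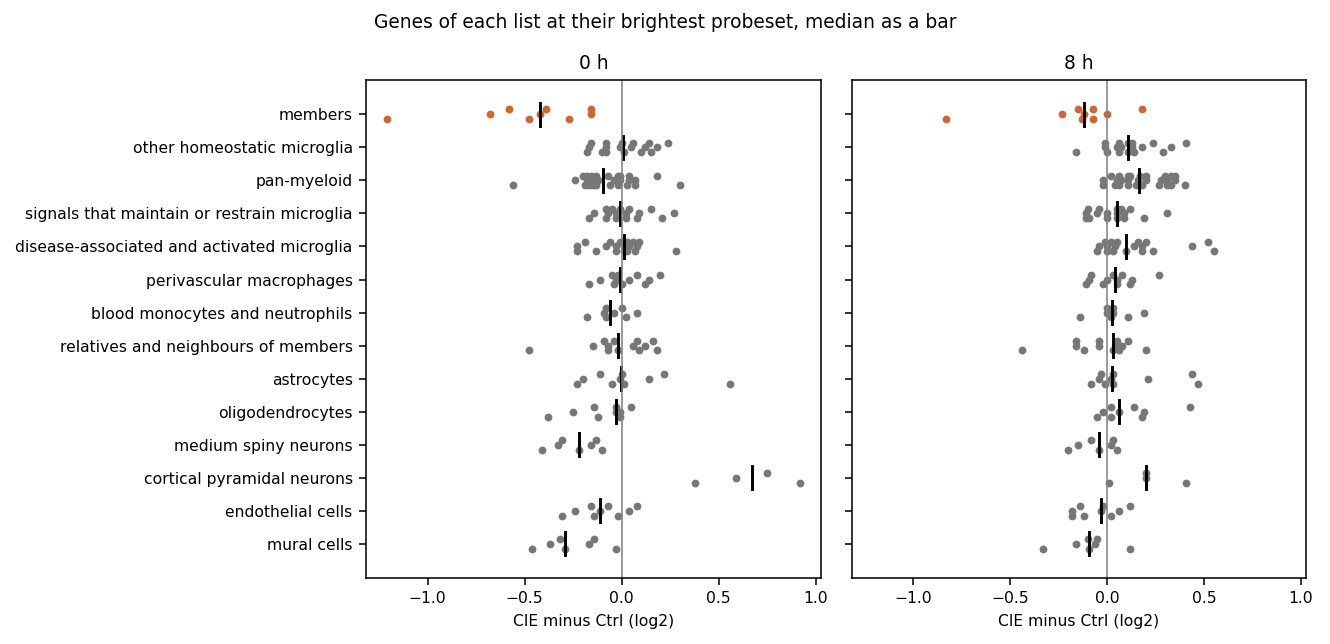
Difference between CIE and Ctrl (log2, horizontal axis) at 0 h and 8 h for each gene of 14 lists at its brightest probeset, with the list's median as a black bar and the 9 genes described here in orange as members. The median of the 9 stands at -0.42 at 0 h, beside 0.01 for the other homeostatic microglia genes and 0.67 for cortical pyramidal neurons. The 9 were chosen with these differences in view.

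A gene each of the mural cell and astrocyte lists also passed at 0 h, and neither did with the 12 arrays of 0 h alone. All 7 mural cell genes were below 0, with a median of -0.29, and Vtn, the matrix protein vitronectin made by pericytes in brain, fell by 0.46 (SE 0.0731, adjusted p = 0.00011 by limma). Their mean ranged from 8.42 to 8.66 in Ctrl and from 8.11 to 8.53 in CIE arrays. All 7 medium spiny neuron genes were below 0 too, with a median of -0.22 and none past the test. The 4 cortical genes were above 0, with a median of 0.67. That median was 0.35 without CIE 0 h replicate 72 and 1.27 without CIE 0 h replicate 43. Of all genes 43.1% were below 0 at 0 h. Genes of a list are read from the same arrays and tissue pieces, so nothing is read from these counts. At 72 h, when no member passed, the cortical median was 1.02. Gjb6, an astrocyte connexin, rose by 0.56 (SE 0.12, adjusted p = 0.0036 by limma), beside 1.28% of genes that passed as higher, and no gene of the oligodendrocyte or endothelial lists passed. Gjb6 no longer passed without Ctrl replicate 30 or 74 or CIE replicate 5, 26 or 67 of 0 h. Kdr, an endothelial receptor, passed without Ctrl replicate 48 or CIE replicate 72 of 0 h, and Slc4a4 and Rgs9, of the astrocyte and medium spiny neuron lists, without CIE replicate 43. Without Ctrl 0 h replicate 20 the mural genes Kcnj8 (-0.37, SE 0.0816, adjusted p = 0.00505 by limma) and Rgs5 (-0.36, SE 0.0773, adjusted p = 0.00485 by limma) passed as well. The mean of the cortical list was 9.06 in CIE 0 h replicate 5 and 7.44 in replicate 26, the arrays lowest in Fcrls, and 5.80 in replicate 43 and 9.29 in replicate 72, the highest. The part of these cell types in the differences of the 9 genes was not tested.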

How the data were processed

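The values are log2 expression from Affymetrix mouse genome arrays. The authors applied RMA with quantile normalization within each hybridization batch, quantile normalization across all arrays and ComBat for hybridization batch, and deposited the log2 values used here. Arrays were grouped by the labels' treatment and time, 1 mouse per array, and precision is limited by the number of arrays. Platform annotation gave 34945 probesets 1 symbol, 932 several and 9160 none. The brightest probeset stood for a gene. A mean per group was fitted to all 45037 probesets with limma 3.58.1 in R 4.3.3, with Benjamini-Hochberg adjustment within each comparison and a threshold of 0.01. Correlations used 100000 permutations within groups (Python 3.11.15, scipy 1.17.1). Hybridization sets were inferred from exactly equal values (tolerance 2e-08, at least 5), not from labels. On data simulated for 72 h over 45037 probesets the fit found 34.3%, 62.7% and 97% of log2 changes of 0.3, 0.5 and 1, with 5 false calls. These shares hold for many probesets changed at once with independent noise, and were not estimated for a lone gene.

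The 9 genes and the lists were chosen with earlier results of these data known. Genes named were the 9 at every probeset, up to 3 passing genes of each other list at each time, Aif1, Csf1r, C1qa, Itgam and Tyrobp, and the 5 most like Fcrls by each measure. A further gene of this rule is not reported here. Fcgr3, P2ry1, Kcnj8, Rgs5, Kdr, Slc4a4, Rgs9 and Hes5 were named after their values were seen. Promoter sequences and positions came from RefSeq tables (GRCm38.p6).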

Additional observations from a re-analysis of the deposited data

Results flagged for a closer look

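Of 88 checks of the member probesets for a single array far from the rest of its group, 4 were positive, where chance gives about 1 in 20. Tmem119 was 9.19 in Ctrl 0 h replicate 20, above 8.64 to 8.81 in the other 5 arrays. Sall1 at its bright probeset was 8.34 in Ctrl 8 h replicate 42, below 8.72 to 8.83 in the other 4, and 9.01 in CIE 7 d replicate 13, above 8.60 to 8.74. Cx3cr1 at its bright probeset was 8.98 in Ctrl 7 d replicate 62, below 9.62 to 9.96. No such array was found for Fcrls.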

How the results depend on the processing

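The number of member probesets that passed at 0 h was 3. It was 6 at a threshold of 0.05 and 0 with the 12 arrays of 0 h alone, and it ranged from 3 to 5 when each array was left out, with 5 without CIE 0 h replicate 17. It was 4 with inferred hybridization sets as a block, Gpr34 being added. At 8 h it was 1 under all 9 alternatives and in each of the 10 fits without an array. The counts of 0 late in withdrawal were 0 in all alternatives run, including those with array weights. The Fcrls difference ran from -1.31 to -1.11 at 0 h and from -0.88 to -0.80 at 8 h when each array was left out. With those sets as a block it was -1.30 at 0 h, a fit in which Ctrl 0 h replicate 20, alone in its block, did not contribute. The number of genes related to Fcrls by Pearson's r of their deviations was 2 (0 by Spearman's rho) and was 1 without the 2 farthest arrays (P2ry13). With set means removed as well, Olfml3 passed (adjusted permutation p = 0.00792) and Gpr34 did not (adjusted permutation p = 0.0318). Over all probesets the count at 0 h was 717, and 309 with array weights, 299 with sets as a block, 396 with the brightest probeset of each gene, 19 with the 0 h arrays alone and 1772 at a threshold of 0.05. At 8 h it was 28, and 119, 31, 25, 6 and 101. At 72 h and 7 d it was 0 and 0, and 20 and 1 with array weights. The causes were not tested. Fcrls has 1 probeset, so the alternative with its other probesets was not run. No paired analysis was possible because the groups share no replicate numbers, so the inferred sets served as blocks instead.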
